A study of Mus musculus with 57 samples.

Results

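Before GATA6 was induced, 4968 of the 44776 regions that it occupied 2 h later (11.1%) already carried both NANOG and SOX2. These sites preoccupied by the 2 pluripotency factors are described here across all factors and time points. They were chosen by measured values. Overlapping peaks of the 2 GATA6 2 h lists were merged, regions holding a peak of both lists were kept as GATA6 2 h regions, and a region became a member when it overlapped, by at least 1 bp, a peak in both NANOG 0 h lists and in both SOX2 0 h lists. The lists came from CUT&RUN, in which an antibody directs a nuclease to a chromatin protein and the released fragments are sequenced. Cells were KH2 mouse embryonic stem (ES) cells, 1 line carrying a single copy of a doxycycline-inducible transgene, TRE:GATA6-DsRed2, which all groups share. The 0 h cells were grown in 2i medium with LIF and no doxycycline. Induced cells were placed in serum medium with LIF and doxycycline, and for the 24 h and 48 h points doxycycline was withdrawn during the culture. Every comparison of 0 h with a later time therefore includes a change of medium, and the 2 cannot be told apart. Peak lists were available in pairs: GATA6 was profiled at 0, 2, 4, 8 and 48 h. For NANOG as for SOX2 the times were 0, 2, 4 and 8 h. The 24 h point was covered for SOX17 and for GATA4, which makes 30 lists.

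GATA6 is a zinc-finger factor that binds GATA words and directs inner cell mass cells to the primitive endoderm (PrE), the layer that gives rise to the yolk sac endoderm. NANOG, a homeodomain protein, and SOX2, an HMG-box protein that binds composite OCT4-SOX2 elements together with OCT4, hold ES cells and the epiblast (Epi) in a pluripotent state. GATA4 and SOX17 are PrE factors that act after GATA6, and SOX17 belongs to the same SOX family as SOX2.

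The sequences below are those of 8 member regions on which the results turn, each reaching 100 bases to either side of the summit of the strongest GATA6 2 h peak, read from the plus strand of GRCm38 (mm10). Capitals mark matches to a GATA word (AGATAA or AGATAG, and likewise TGATAA or TGATAG) or to the composite OCT4-SOX2 word TTGTNATGC on either strand. Those of Nanog (chr6:122702657-122702857), Lefty2 (chr1:180888718-180888918), Otx2 (chr14:48701417-48701617) and Bmp4 (chr14:46412568-46412768) lie upstream of Epi genes. The windows of Pou5f1 (chr17:35501388-35501588), Rbpj (chr5:53467080-53467280), Nt5e (chr9:88332461-88332661) and Lamc1 (chr1:153376851-153377051) stand for regions that kept peaks of late factors or had the highest folds. The Nanog window held no capitalized word, the Lefty2 window held an OCT4-SOX2 word only, and the Otx2 and Bmp4 windows held 3 GATA words each.
Nanog: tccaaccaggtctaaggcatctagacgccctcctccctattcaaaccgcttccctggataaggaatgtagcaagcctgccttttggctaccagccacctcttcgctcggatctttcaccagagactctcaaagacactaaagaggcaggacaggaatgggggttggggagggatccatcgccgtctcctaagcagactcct
Lefty2: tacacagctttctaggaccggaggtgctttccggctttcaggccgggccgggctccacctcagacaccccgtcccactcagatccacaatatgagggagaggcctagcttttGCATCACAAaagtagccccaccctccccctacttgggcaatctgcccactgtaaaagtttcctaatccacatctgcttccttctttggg
Otx2: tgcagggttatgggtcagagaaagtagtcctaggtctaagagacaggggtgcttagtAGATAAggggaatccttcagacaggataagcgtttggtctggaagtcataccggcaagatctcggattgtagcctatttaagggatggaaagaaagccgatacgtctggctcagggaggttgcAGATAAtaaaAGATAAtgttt
Bmp4: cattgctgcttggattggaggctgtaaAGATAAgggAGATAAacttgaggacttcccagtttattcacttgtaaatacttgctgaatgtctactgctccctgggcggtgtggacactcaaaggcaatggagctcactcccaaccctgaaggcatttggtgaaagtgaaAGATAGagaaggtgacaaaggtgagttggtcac
Pou5f1: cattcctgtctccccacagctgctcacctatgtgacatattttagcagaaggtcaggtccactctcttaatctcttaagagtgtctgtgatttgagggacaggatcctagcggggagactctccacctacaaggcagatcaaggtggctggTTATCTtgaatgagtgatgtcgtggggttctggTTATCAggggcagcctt
Rbpj: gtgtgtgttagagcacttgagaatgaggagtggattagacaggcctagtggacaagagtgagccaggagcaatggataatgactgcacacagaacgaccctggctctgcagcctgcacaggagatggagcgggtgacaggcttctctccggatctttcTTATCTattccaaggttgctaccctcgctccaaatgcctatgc
Nt5e: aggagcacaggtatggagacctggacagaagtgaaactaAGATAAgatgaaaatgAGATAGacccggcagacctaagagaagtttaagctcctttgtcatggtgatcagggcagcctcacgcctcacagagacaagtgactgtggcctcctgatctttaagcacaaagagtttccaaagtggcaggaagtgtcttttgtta
Lamc1: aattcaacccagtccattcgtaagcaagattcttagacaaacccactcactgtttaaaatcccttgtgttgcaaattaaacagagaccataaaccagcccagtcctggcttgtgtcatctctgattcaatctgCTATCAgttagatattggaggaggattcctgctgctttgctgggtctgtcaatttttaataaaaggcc

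The lists of GATA6 after induction, of NANOG and of SOX17 had background coverages of 0.865 to 1.55 fragments per base, those of SOX2 of 0.290 to 0.693, as recovered from the peak heights and folds. The GATA6 0 h lists, made before induction, held 86 and 882 peaks, and either of them had a peak in 27 of the member regions. Both GATA6 0 h lists had a peak in 2 members, which lie on the mitochondrial genome and held a peak in all 30 lists. In 6 GATA6 lists the time in the file and peak names (4, 8 or 48 h) differed from the time of the record that holds them. The times in the names were used. The 2 lists of a group may be technical repeats, so that p-values measure only the spread between these lists. Since the material is bulk, fewer occupied cells and weaker occupancy per cell cannot be told apart, and peaks of 2 factors in 1 region need not come from the same cells.

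The member regions had median fold enrichments over the control of 12.4 and 10.3 in the 2 GATA6 2 h lists. Their medians were 6.84 and 8.30 in the NANOG 0 h lists and 11.1 and 11.6 in the SOX2 0 h lists. These values chose the members and are given as a description. Another 3167 GATA6 2 h regions overlapped 3 of the 4 NANOG and SOX2 0 h lists, and 2623 of these missed a NANOG list. Their median GATA6 2 h folds were 8.98 and 7.58. The members nearest the edge of the rule, with −log10 q of 1.31 in their weakest list, lay near Gpm6b, D10Wsu102e, Chit1, Ttc30a2 and Fblim1. The members were compared with 3 other classes. In 25853 GATA6 2 h regions no NANOG or SOX2 0 h list had a peak (GATA6-only regions), and 3899 had a peak in both SOX2 0 h lists and in no NANOG 0 h list (SOX2-only regions). A further 451 regions held NANOG and SOX2 in all 4 of their 0 h lists and no GATA6 2 h peak. Median widths were 1011 bp in members, 601 bp in GATA6-only, 744 bp in SOX2-only regions and 432 bp in those without GATA6.

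NANOG was present at nearly all member regions 2 h after induction and at few of them at 8 h. The 2 NANOG 2 h lists had a peak at 97.7% and 90.3% of the members. The corresponding shares were 61.4% and 60.5% in the 4 h lists and 14.0% and 10.9% in the 8 h lists. The lists of the 3 time points did not overlap in this share. Both lists of a time point had a peak at 4444 members at 2 h, where the background over all GATA6 2 h regions was 36.7%. At 4 h both lists had a peak at 2445 members (background 15.1%), and at 8 h at 261 (background 1.07%). Members made up 54.4% of the 480 GATA6 2 h regions with NANOG in both 8 h lists. The mean share at 8 h was 81.6 percentage points below that at 2 h (means 94.0% ± 5.23 and 12.4% ± 2.22, SD, n = 2 lists each), with an exact permutation p over the 6 lists of 0.0667, the smallest this design allows.

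SOX2 stayed at more of the members. Its 2 h lists had a peak at 85.3% and 95.7% of the members. The 4 h lists had one at 90.8% and 77.8% and the 8 h lists at 49.0% and 47.2%. The 2 h and 4 h lists overlapped in this share, and both 8 h lists lay below them. SOX2 was in both lists of the 2 h point at 4171 members (background 33.3%). For 4 h this number was 3764 (background 35.6%), and for 8 h it was 1879 (background 14.9%). The share at 8 h was 42.4 points below that at 2 h (exact permutation p = 0.133). The NANOG share minus the SOX2 share was 3.53 points at 2 h, −23.4 points at 4 h and −35.7 points at 8 h. At 4 h and 8 h the lists of the 2 factors did not overlap, in members or over all GATA6 2 h regions. Over all these regions, mean NANOG shares were 50.3%, 23.4% and 3.40% at 2, 4 and 8 h. Mean SOX2 shares there were 46.4%, 49.4% and 22.8%, so NANOG stood above SOX2 at 2 h and below it later there too. In members NANOG was 18.5 points below SOX2 over the 3 time points (two-sided exact permutation p within time points = 0.0463, adjusted over 10 tests 0.0772). The SOX2 lists had the lower background coverage, given above, and its part in this difference was not tested.

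**Figure D1:**
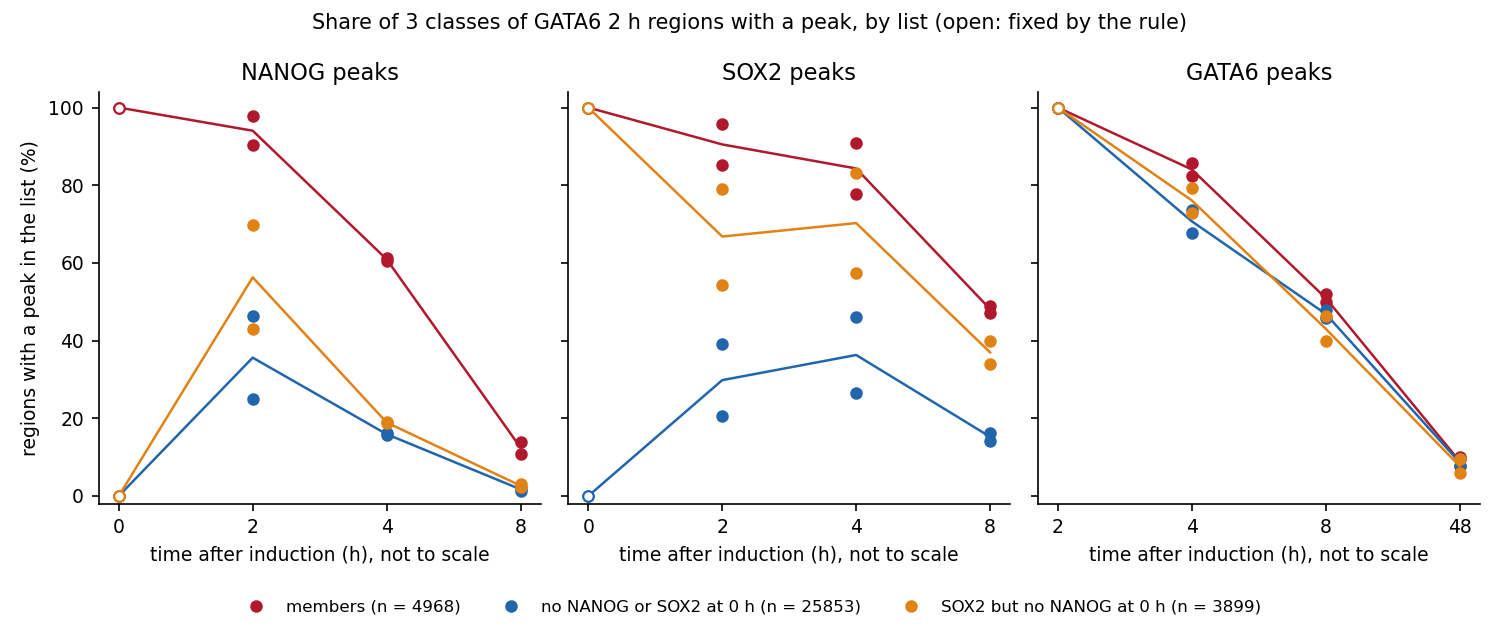
Percentage of regions with a peak in each list (points, 1 per list; lines join the means of the 2 lists) against time after induction in hours, for NANOG, SOX2 and GATA6, in member (red), GATA6-only (blue) and SOX2-only (orange) regions; open points are fixed by the rule. In members NANOG stood at 14.0% and 10.9% at 8 h and SOX2 at 49.0% and 47.2%, and mean GATA6 shares at 4 h were 84.1% in members, 70.7% in GATA6-only and 76.1% in SOX2-only regions.

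The size of these shares moved with list length. The NANOG lists ran from 52285 peaks in one of the 2 h lists to 2255 in one of the 8 h lists. When each NANOG list was limited to its 2255 strongest peaks, the 2 h lists reached 28.7% and 28.0% of the members, the 4 h lists 20.4% and 20.1%, and the 8 h lists 9.70% and 10.9%. With 11540 peaks in each SOX2 list, the shares were 70.4% and 70.5% for 2 h, 60.2% and 61.2% for 4 h, and 45.8% and 47.2% for 8 h. The order of the time points was the same for both factors, and the difference between 2 h and 8 h was 18.1 points for NANOG and 23.9 points for SOX2. On this scale NANOG was 39.6 points below SOX2 over the 3 time points (−39.6 points, exact permutation p = 0.00926). The SOX2 lists then held more peaks than the NANOG lists at every time. The 2 factors' shares are thus not on an equal footing, and this p-value cannot compare the factors.

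At single member regions the factors were found in mixed states. Counting a factor as present when both its lists had a peak, 3919 members (78.9%) held NANOG and SOX2 beside GATA6 at 2 h, and 272 held GATA6 without either. At 4 h all 3 factors were called at 2205 members (44.4%), and SOX2 and GATA6 without NANOG at 1093 (22.0%). At 8 h the largest group, 2364 members (47.6%), held none of the 3. SOX2 and GATA6 without NANOG were called at 1266 (25.5%), GATA6 alone at 698 and SOX2 alone at 379. NANOG without GATA6 at 8 h was called at 7 members with SOX2 and at 8 without it. Later, 6 members held a peak in none of the 22 lists made after those of the rule, 1100 in no list after 4 h, and 40 in all 22, the 2 mitochondrial regions among them. These combinations were counted in members only, so they do not set the members apart from other GATA6 2 h regions. Over all GATA6 2 h regions, both 8 h lists had a peak at 1.07% for NANOG, 14.9% for SOX2 and 38% for GATA6.

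**Figure D2:**
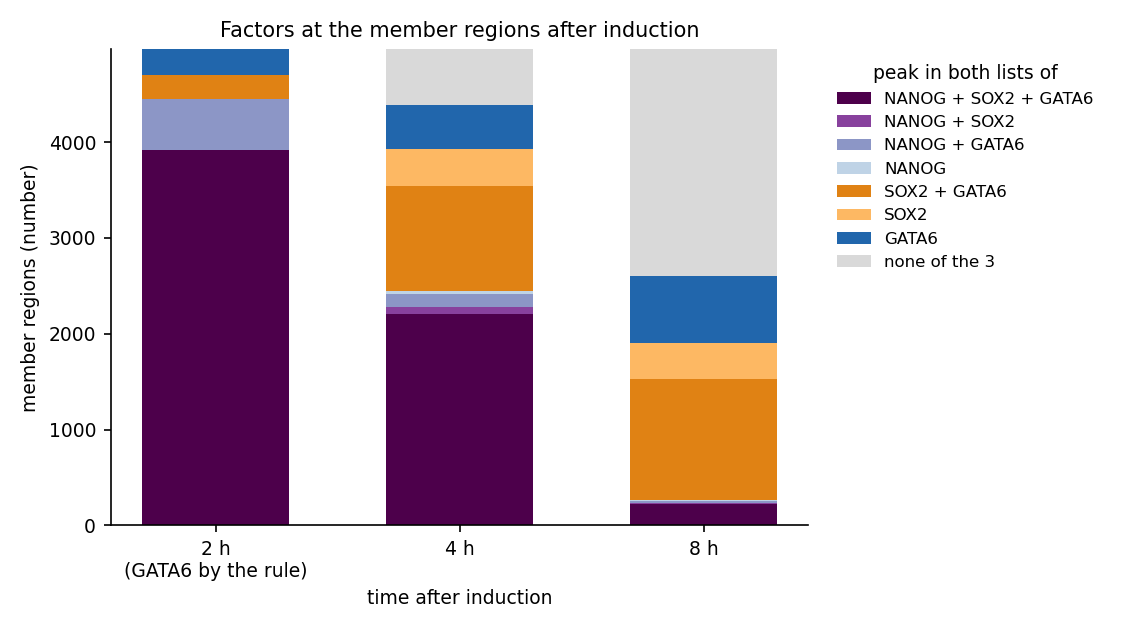
Number of member regions (vertical axis) with each combination of NANOG, SOX2 and GATA6 peaks in both lists at 2, 4 and 8 h; at 2 h GATA6 is present by the rule. The group with all 3 factors held 3919 (2 h), 2205 (4 h) and 227 members (8 h), and the group with none held 582 (4 h) and 2364 (8 h).

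Few of the member regions still had a GATA6 peak at 48 h, and so it was for all GATA6 2 h regions. Over all of these the mean share went from 73.1% at 4 h to 8.27% at 48 h. Doxycycline had been withdrawn from the 48 h cells, and its withdrawal cannot be told apart from the passing of time. The 4 h lists had a peak at 82.3% and 85.8% of the members, the 8 h lists at 49.9% and 52.0%, and the 48 h lists at 7.79% and 10.1%, with no overlap between time points. GATA6 was in both 4 h lists at 3885 members (background 63.8%). It was in both 8 h lists at 2210 (background 38%) and in both 48 h lists at 308 (background 5.71%). The 8 h share stood above the background by less than the 4 h share, and the 48 h count of 6.20% was near it. The share at 48 h was 75.1 points below that at 4 h (exact permutation p = 0.0667, the smallest possible). The GATA6 lists differ in length as well, and with 5933 peaks in each the shares were 24.1% and 24.7% for 4 h, 15.4% and 15.6% for 8 h, and 7.79% and 7.61% for 48 h. The order of the time points was the same, and 48 h then stood 16.7 points below 4 h (exact permutation p = 0.0667). Under the times of the records that hold the files, the shares would be 7.79% and 10.1% at 4 h, 82.3% and 85.8% at 8 h and 49.9% and 52.0% at 48 h, so that 48 h would stand 42.0 points above 4 h.

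Members held GATA6 more often than GATA6-only regions when all regions were compared, and less often when regions of like 2 h strength were compared. Taken as they are, members had a higher GATA6 share than GATA6-only regions in 6 of 6 lists, by 14.6 and 12.1 points in the 4 h lists, 4.11 and 4.05 points in the 8 h lists, and 0.127 and 0.465 points in the 48 h lists. The mean was 5.91 points (two-sided exact sign-flip permutation p = 0.0312, adjusted 0.0625, the raw value being the smallest possible). Against SOX2-only regions the mean was 5.70 points, with 6 of 6 lists higher in members (exact permutation p = 0.0312, adjusted 0.0625). These differences depend on the 2 h lists that made the regions. With 1 GATA6 2 h list enough to make a region, they became 17.6 points without replicate 1 and 19.2 points without replicate 2 against GATA6-only regions, and 8.68 and 11.1 points against SOX2-only regions.

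Members had stronger GATA6 2 h peaks than the regions they were compared with. Both classes were divided into 5 bins by mean GATA6 2 h fold, cut so that each held an equal number of regions of the 2 classes together. Of the members, 47.2% fell in the strongest bin and 5.44% in the weakest, against 14.8% and 22.8% of the GATA6-only regions. Averaged over these bins the sign was the other way in 6 of 6 lists, with differences (members minus GATA6-only) of −3.74 and −3.52 points in the 4 h lists, −17.0 and −16.7 points in the 8 h lists and −4.97 and −5.24 points in the 48 h lists. The mean within bins was −8.52 points (two-sided exact permutation p = 0.0312, the smallest possible), and against SOX2-only regions it was −8.15 points (exact permutation p = 0.0312). In the fourth bin, with mean folds up to 11.9, the GATA6 8 h lists had a peak at 34.8% and 38.6% of the members and at 62.7% and 65.1% of the GATA6-only regions. In the third bin they had one at 17.3% and 21.1% of the members and at 45.0% and 47.3% of the GATA6-only regions. In the strongest bin the shares were 80.8% and 81.7% against 87.6% and 88.9%. Members were also wider, and within 100 bp of the summit the unadjusted difference from GATA6-only regions was 5.66 points (exact permutation p = 0.125).

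**Figure D3:**
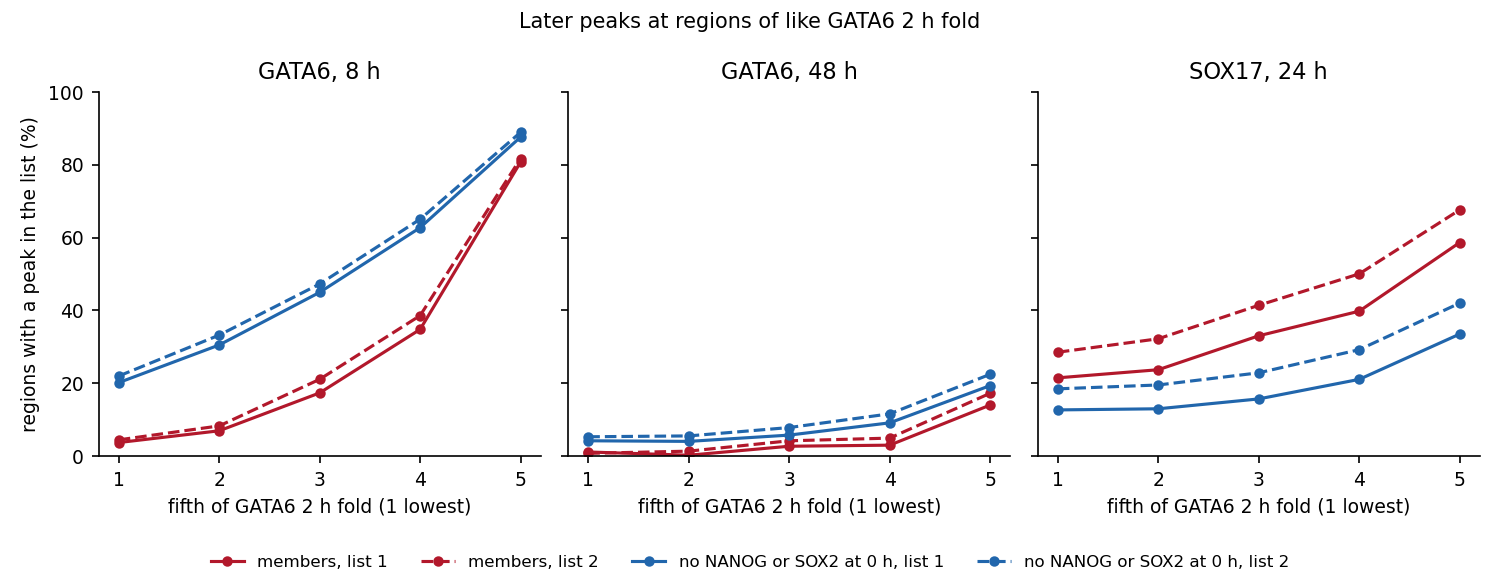
Percentage of regions with a peak in each later list (vertical axis) against the bin of mean GATA6 2 h fold, from 1 (lowest) to 5, for member and GATA6-only regions; each line is 1 list. At 8 h the GATA6 lines of the members lie below those of the GATA6-only regions in every bin, while the SOX17 lines of the members lie above them.

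Among the members, strength at 2 h went with the later presence of every factor. From the weakest to the strongest bin of the members by GATA6 2 h fold, the GATA6 8 h share went from 7.45% to 95.6% in replicate 1, the SOX2 8 h share from 16.9% to 86.2%, and the NANOG 8 h share from 1.71% to 38.3%. Such a rise was not particular to members. Over the bins that GATA6-only regions share with members, the GATA6 8 h share of GATA6-only regions went from 20.2% to 87.6% in replicate 1. Their SOX17 share went from 12.7% to 33.5%. Strength of NANOG at 0 h went another way. From the lowest to the highest bin of NANOG 0 h fold, the NANOG 8 h share of replicate 1 went from 7.65% to 28.1%, while the GATA6 48 h share went from 12.2% to 5.65%, the GATA4 share from 19.9% to 8.87% and the SOX17 share from 55.8% to 41.3%. In replicate 2 the last 3 went from 14.9% to 7.26%, from 12.0% to 5.75% and from 62.2% to 51.2%. The GATA6 8 h shares at both ends lay between 50.8% and 55.6%. These are descriptions, with no test over regions.

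Compared with regions that lacked GATA6, NANOG and SOX2 were called at more of the members. The NANOG lists had a peak at 65.6% and 34.2% of the 451 regions without GATA6 at 2 h, at 3.10% and 4.88% at 4 h, and at 1 region each at 8 h. Members stood 37.8 points higher on average over the 6 lists, from 10.7 to 58.3 points (two-sided exact permutation p = 0.0312, adjusted 0.0625). For SOX2 the mean difference was 54.0 points, from 42.1 to 66.9, in 6 of 6 lists (exact permutation p = 0.0312, adjusted 0.0625). Within bins of NANOG or SOX2 0 h fold these differences were 35.6 and 45.2 points. Against SOX2-only regions, the SOX2 lists after 0 h were higher in members by 16.3 points on average, from 7.67 to 30.9, in 6 of 6 lists (exact permutation p = 0.0312, adjusted 0.0625). Within bins of SOX2 0 h fold, this last difference was 2.91 points (exact permutation p = 0.312), with 3 of 6 lists higher in members.

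SOX17 was found at about as many members at 24 h as SOX2 at 8 h, and GATA4 at few. List lengths differ, so these shares do not rank the factors. The SOX17 lists held 27328 and 41979 peaks, the SOX2 8 h lists 14055 and 11540, and the GATA4 lists 8427 and 4006. Of a list's own peaks, 9.21% and 7.35% lay in members for SOX17. For SOX2 at 8 h these were 18.7% and 21.7%, and for GATA4 7.71% and 10.4%. The SOX17 lists had a peak at 45.3% and 54.4% of the members, against 18.1% and 25.2% of the GATA6-only regions and 52.8% and 62.3% of the SOX2-only regions. GATA4 lists had one at 12.6% and 8.09% of the members, against 9.87% and 6.38% of the GATA6-only regions. Both lists had a peak at 2139 members for SOX17 (background 25.1%) and at 331 for GATA4 (background 5.55%), the latter near the background. Over the 4 lists members stood 15.2 points above GATA6-only regions, from 1.71 to 29.2 (exact permutation p = 0.125, the smallest possible). Within bins of GATA6 2 h fold, the SOX17 lists stayed higher in members by 20.3 and 21.5 points and the GATA4 lists differed by −3.40 and −3.23 points (mean of the 4 lists 8.79, exact permutation p = 0.5).

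SOX17 was called more often at the members that held SOX2 at 8 h. Of the 1879 members with SOX2 in both 8 h lists, 73.2% had SOX17 in both lists, against 24.7% of the other 3089. The former had the stronger GATA6 2 h peaks, with a median mean fold of 18.5 against 8.86. Within each bin of GATA6 2 h fold the order was the same. The SOX17 share of members with SOX2 at 8 h ran from 67.4% to 79.4% over the bins in replicate 1 and from 76.4% to 86.9% in replicate 2, and that of members without it from 20.6% to 32.1% and from 28.6% to 44.3%. The 308 members with GATA6 in both 48 h lists had SOX17 in both lists in 98.1% of cases and GATA4 in 55.2%, against 39.4% and 3.46% of the other 4660. They had SOX2 in both 8 h lists in 87.7% of cases, against 34.5%. These splits were made in members only, and whether other GATA6 2 h regions differ from members in them was not tested. Over all GATA6 2 h regions, both lists had a peak at 25.1% for SOX17 and 5.55% for GATA4. The libraries share no cells, and the lists of 1 factor share an antibody.

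The GATA6 2 h summits of the members held fewer GATA words than those of GATA6-only regions and more pluripotency words. Of the 4966 members outside the mitochondrial genome, 39.9% held a GATA word within 100 bp of the summit, against 64.2% of the GATA6-only and 34.9% of the SOX2-only regions, and 54.1% of all GATA6 2 h regions. The OCT4-SOX2 word was held by 4.35% of the members, 0.778% of the GATA6-only and 0.872% of the SOX2-only regions (1.35% of all), and by 4.88% of the windows at the NANOG 0 h summit of regions without GATA6. A SOX word (ACAATG or ACAAAG), which can overlap the OCT4-SOX2 word, was found in 45.6%, 32.3% and 32.7% (34.0% of all). The word AAGGTCA, bound by ESRRB and NR5A2, was found in 10.6%, 7.31% and 6.59% (7.77% of all). KLF words (GGGTGTG or GGGCGTG) were found in 13.0%, 10.9% and 15.0% (12.1% of all). Both strands were searched. Median GC content was 45.8% in members, 46.8% in GATA6-only and 51.7% in SOX2-only windows.

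**Figure D4:**
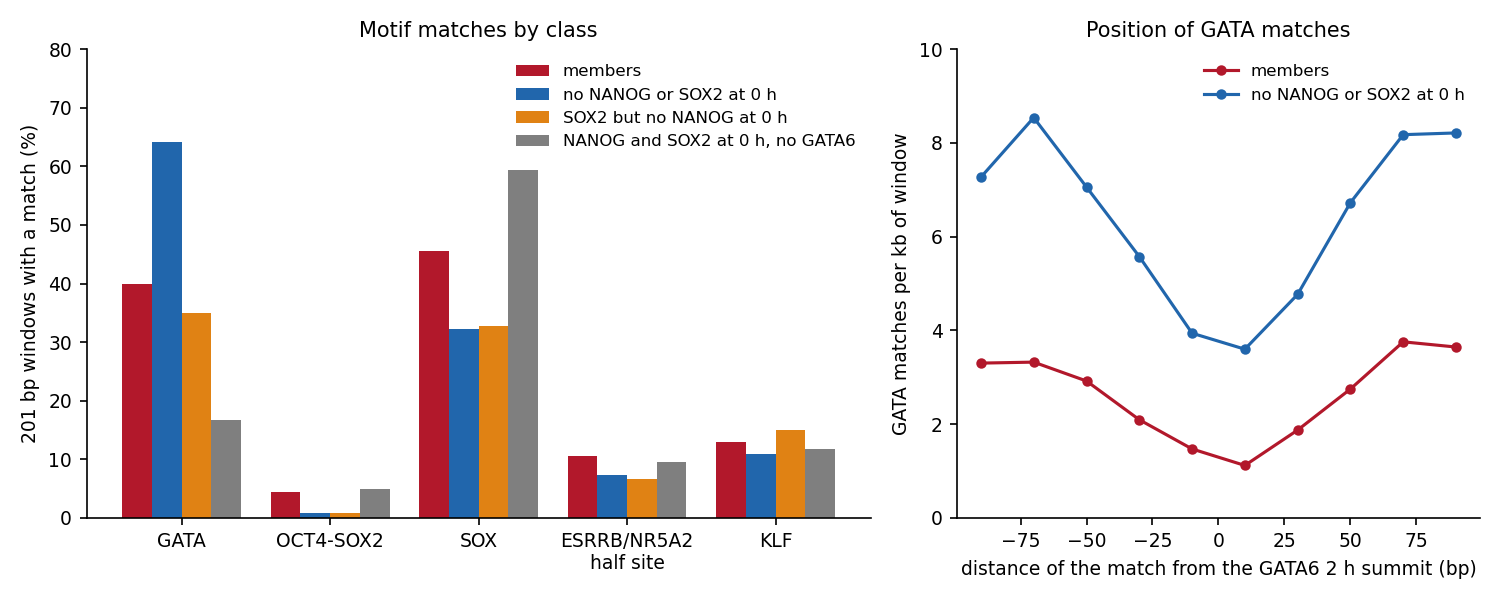
Left, percentage of windows of 100 bp to either side of the summit with at least 1 match (vertical axis) for each of 5 kinds of words in the 4 classes of regions; right, GATA matches per kb of window (vertical axis) against distance from the GATA6 2 h summit in bp. GATA words are in 39.9% of member and 64.2% of GATA6-only windows, and in both classes the matches are fewest at the summit itself.

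Within the members, GATA words went with the strength of GATA6 at 2 h and with its later peaks. The word AAGGTCA went with the 2 h strength and the 8 h peaks to a smaller extent, and the OCT4-SOX2 word went the other way. GATA words were held by 29.9%, 33.5%, 38.8%, 43.7% and 53.6% of the members from the weakest to the strongest bin of GATA6 2 h fold. For the OCT4-SOX2 word the shares went from 6.64% to 3.33% and for SOX words from 47.1% to 44.2%. For AAGGTCA they went from 8.95% to 13.4% and for KLF words from 14.1% to 12.9%. Members with GATA6 in both 8 h lists held a GATA word in 48.2% of cases and the rest in 33.3%. The OCT4-SOX2 word was in 2.85% and 5.55% of them, and AAGGTCA in 11.55% and 9.79%. Members with and without SOX17 at 24 h differed little in GATA words (40.3% and 39.6%) and in SOX words (44.8% and 46.2%). GATA matches were fewest at the summit itself, with 1.47 and 1.12 per kb in the 20 bp on either side of it and 3.30 to 3.76 per kb beyond 60 bp. The GATA6-only regions had the same dip, from 7.27 to 8.54 per kb beyond 60 bp to 3.94 per kb just before the summit.

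Summit distances between the factors in the members are given as a description. The rule asks for peaks of GATA6 at 2 h and of NANOG and SOX2 at 0 h in 1 region, which limits these distances beforehand. The GATA6 2 h summit lay a median of 89 bp from the NANOG 0 h summit in both replicates and 98 and 91 bp from the SOX2 0 h summit. Between the 2 replicates of 1 factor, the median distances were 59 bp for GATA6, 62 bp for NANOG and 68 bp for SOX2. NANOG and SOX2 summits at 0 h were 82 and 67 bp apart. Where SOX17 had a peak, its summit was 84 bp from that of SOX2 at 0 h and 87 and 90 bp from that of GATA6 at 2 h.

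Most of the members lay away from promoters. By the position of the GATA6 2 h summit, 54.1% were intergenic, 37.5% intronic, 6.22% within 1000 bp of a start site, 1.11% in UTRs and 1.09% in coding exons, with a median distance of 38240 bp to the nearest start site. GATA6-only regions were alike (5.56% at promoters, 31530 bp), whereas 26.7% of the SOX2-only regions lay at promoters (13160 bp). Of 21951 protein-coding genes, 4362 had a member within 50 kb of a start site, a background of 19.9%.

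Most of the listed Epi genes had a member, and the PrE factor genes examined had none. All genes of the lists had a GATA6 2 h region within 50 kb, as did 74.7% of the protein-coding genes. Of 19 genes for Epi and naive pluripotency factors, 17 had a member, all except Esrrb and Klf4, and of 16 genes for signalling in the Epi, 15 had one, all except Socs3. None of these 6 PrE factor genes (Gata6, Gata4, Sox17, Sox7, Foxa2 and Hnf4a) had a member, although each had GATA6 2 h regions nearby. With a background of 19.9% of protein-coding genes, 6 genes are too few to set their count apart from it. Of 12 genes for PrE receptors and matrix proteins 4 had one (Pdgfra, Lama1, Lamc1 and Sparc), and of 12 genes of other lineages 5. Counted over regions, members were 36 of the 180 GATA6 2 h regions near Epi factor genes (20.0%), 24 of 144 near Epi signalling genes (16.7%), 0 of 24 near PrE factor genes, 6 of 92 near PrE receptor and matrix genes (6.52%) and 7 of 55 near genes of other lineages (12.7%). Near all protein-coding genes the share was 2802 of 28286 regions (9.91%). Near the PrE factor genes 20 of the 24 regions were GATA6-only. The gene lists were chosen with earlier results of these data known, and these counts have no test.

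**Figure D5:**
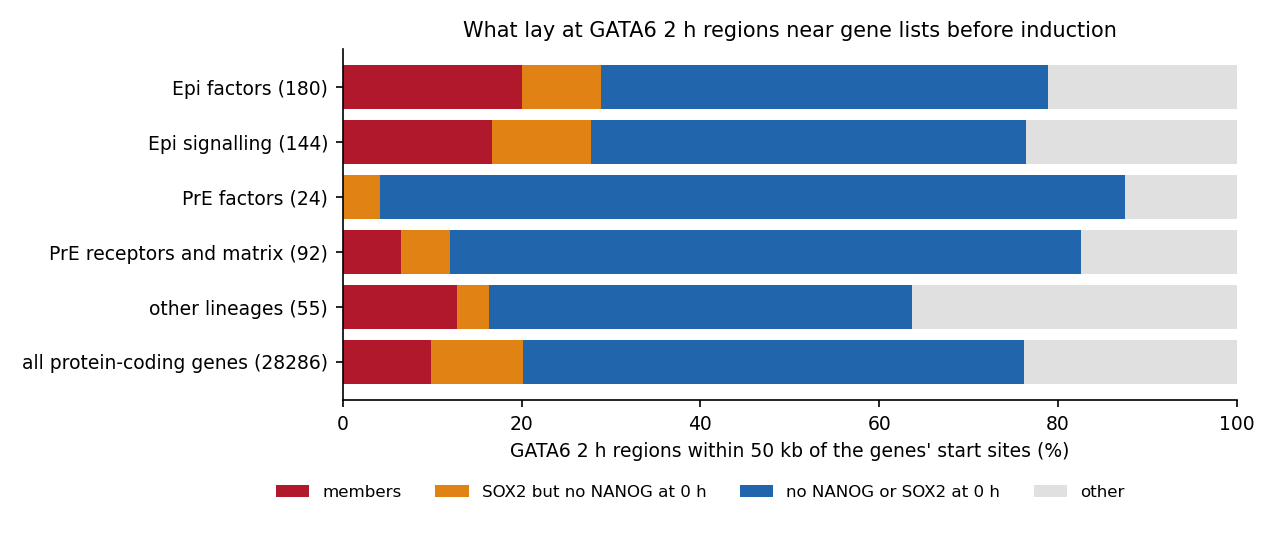
Percentage of the GATA6 2 h regions within 50 kb of the start sites of each gene list (horizontal axis) that were member (red), SOX2-only (orange), GATA6-only (blue) or other regions (grey); the number of regions is in parentheses. Members are 20.0% near Epi factor genes, 16.7% near Epi signalling genes and 0 of 24 near PrE factor genes.

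The later peaks at members near Epi genes are given as counts, with no test against the other members. Of the 36 near Epi factor genes, NANOG was in both lists of the 2, 4 and 8 h points at 32, 18 and 0. SOX2 was called at 31, 28 and 16 of them, and GATA6 at 32, 18 and 1 for the 4, 8 and 48 h points. SOX17 was in both lists at 13 of them and GATA4 at 2. Of the 24 near Epi signalling genes, NANOG was in both lists at 22, 14 and 4, SOX2 at 20, 17 and 13, GATA6 at 22, 16 and 2, and SOX17 at 17. Of all members, 5.25% held NANOG in both 8 h lists, 37.8% SOX2 and 44.5% GATA6, and 43.1% held SOX17 in both 24 h lists. Mycn and Etv5 had 4 members each, and Tbx3, Nr0b1, Otx2, Tet1 and Spry2 had 3 each. Dppa3 and Gdf3 share a member, and the 2 members of Lefty1 are also those of Lefty2.

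The member upstream of Nanog (chr6:122702104-122703569, intergenic, 4732 bp before the start site) is shown first among the sequences. Its GATA6 folds were 26.7 and 25.2 at 2 h, 14.5 and 21.2 at 4 h, and 8.27 and 12.0 at 8 h, with no peak at 48 h. NANOG, the product of this gene, had folds of 13.9 and 23.6 at 0 h, 19.8 and 17.6 at 2 h, and 14.9 and 9.16 at 4 h, and 1 of the 2 lists had a peak at 8 h (5.35). SOX2 had 40.7 and 41.6 at 0 h and 9.66 and 16.9 at 8 h. SOX17 had 20.7 and 19.6 at 24 h. GATA6 was thus called there up to 8 h, NANOG in both lists up to 4 h, and SOX17 at 24 h, while GATA4 had no peak.

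Other Epi factor genes differed in how long their members were held. At the Sox2 member (chr3:34653768-34654231, 3501 bp past the start site), GATA6 folds were 7.69 and 5.21 at 2 h. Only 1 of the 2 GATA6 4 h lists had a peak there (6.18), and none at 8 h, 48 h or for SOX17. The Pou5f1 member (chr17:35500577-35503161, 4530 bp before the start site of the gene for OCT4) was held longer. GATA6 had folds of 16.1 and 12.6 there at 2 h and 5.80 and 5.07 at 48 h, and SOX17 had 48.3 and 54.2, while NANOG was in neither 8 h list. The Otx2 member (chr14:48700813-48702033, 27698 bp before the start site of a homeobox gene of the primed Epi) had GATA6 folds of 38.1 and 44.1 at 2 h, 28.7 and 54.5 at 4 h, and 34.7 and 36.7 at 8 h. At 48 h 1 of the 2 GATA6 lists had a peak there (5.99), and GATA4 had folds of 5.45 and 5.44. At the Mycn member (chr12:12941661-12944499, 1566 bp before the start site of a MYC family gene), GATA6 had 35.5 and 32.0 at 2 h, then 21.4 and 16.8 at 8 h, with no peak at 48 h. At the Klf2 member (chr8:72315769-72316741, 2680 bp before the start site of a naive pluripotency factor gene) GATA6 had 23.0 and 16.9 at 2 h, 10.1 and 10.9 at 4 h, and 6.27 and 5.23 at 8 h, and NANOG had a peak in 1 of its 4 h lists.

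Members near Epi signalling genes also differed in what they held at 8 h and later. The Bmp4 member (chr14:46411807-46413564, 21999 bp before the start site of the ligand gene) had GATA6 folds of 75.2 and 51.2 at 2 h and 25.8 and 28.2 at 8 h, and no 48 h peak. NANOG was in neither 8 h list there. At the Id3 member (chr4:136146361-136147956, 3485 bp past the start site of a BMP target gene) GATA6 had 72.3 and 49.6 at 2 h and 29.0 and 20.3 at 8 h. NANOG was still called there at 8 h, with 11.1 and 6.21. At the Lefty2 member (chr1:180887808-180889459, 4290 bp before the start site of a secreted Nodal antagonist gene), which holds the OCT4-SOX2 word printed above, NANOG had 4.51 and 5.80 at 8 h and GATA6 12.0 and 15.4. At the Nodal member (chr10:61415487-61417392, 1773 bp before the start site) GATA6 had 41.9 and 33.0 at 2 h and 15.9 and 21.4 at 8 h, and SOX17 had 17.6 and 20.8. The Spry2 member (chr14:105899835-105901717, 4226 bp before the start site of an FGF feedback inhibitor gene) was the one among those named for Epi signalling genes with GATA6 in both 48 h lists, at 7.04 and 7.48.

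The members near PrE matrix and receptor genes ranged from 1 to 22 later lists. At the Lamc1 member (chr1:153376313-153377425, 44165 bp before the start site of the laminin gamma 1 gene) every later list had a peak. GATA6 had folds of 103.5 and 94.8 there at 2 h, 60.02 and 60.8 at 4 h, 48.7 and 63.0 at 8 h, and 20.3 and 19.8 at 48 h. NANOG had 6.65 and 8.06 at 0 h and 8.93 and 4.78 at 8 h, and SOX17 had 28.8 and 29.2. The Lama1 member (chr17:67710442-67711755, in an intron of the laminin alpha 1 gene) had a peak in 1 later list, one of the NANOG 2 h lists (11.7). The Pdgfra member (chr5:75189328-75190066, in an intron of the gene for the PDGF receptor alpha, a PrE surface marker) had GATA6 folds of 5.71 and 8.35 at 2 h and no GATA6 peak at 8 h or 48 h, while SOX17 had 3.95 and 2.90.

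By the geometric mean of the folds in the 6 lists of the rule, the member in an intron of Rbpj (chr5:53466444-53468259, 1028 bp past the start site), the gene of the DNA-binding partner of the Notch receptors, stood first at 57.5. Its GATA6 folds were 104.3 and 89.99 at 2 h, 65.2 and 73.7 at 4 h, and 27.1 and 32.3 at 8 h, with no peak at 48 h. NANOG had folds of 34.2 and 32.7 there at 0 h and 12.8 and 9.57 at 8 h. Next came Car8, a carbonic anhydrase-related gene, at 49.1, and, leaving aside the 2 mitochondrial regions, Jam2, Nt5e, Slc9a9, Sema3a, Dpp6 and Ticrr. These members are named for the nearest start site, which lay 84469 bp away for Car8, 252237 bp for Sema3a and 65951 bp for Dpp6. The Nt5e member (chr9:88332085-88333633, in an intron of the gene for the ecto-5'-nucleotidase CD73) held peaks in all 22 later lists. GATA6 had 88.7 and 71.6 there at 2 h and 4.51 and 4.75 at 48 h, and SOX2 had 39.6 and 43.5 at 8 h. Other members in all 22 later lists had Gpr37l1, Hs6st1, Foxk1, Cdc42ep3, Chn2 and Fat1 as the gene of the nearest start site. That site was 271346 bp away for Foxk1 and 56950 bp for Chn2. At the member named for Foxk1 the SOX17 folds were 91.9 and 78.1, and at that named for Cdc42ep3 they were 3.73 and 4.66.

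Some members lay close together. With gaps of at most 12500 bp, 69 clusters of 3 or more held 228 members (4.59%). No such count was made for the other GATA6 2 h regions, so this share has no background beside it. The cluster with 6 members lay near Slc38a11 (chr2:65418259-65454494), and 5 lay at the Ifitm genes on chromosome 7 (chr7:140955171-140974105), which encode interferon-induced membrane proteins. Ifitm1, Ifitm2, Ifitm3 and Ifitm5 had the same number of members within 50 kb, 6 each, since their start sites lie close together, and 17 genes had 5 or more. Of the 5 members near Klf9, a gene for a Krüppel-like factor, SOX17 was in both lists at 5, GATA6 at 8 h at 5 and NANOG at 8 h at 2. Of the 5 near Tgif1, a gene for a repressor of TGF-beta signalling, SOX17 was in both lists at 1 and GATA6 at 8 h at 4.

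Of the 10 main tests made over lists, none passed 0.05 after Benjamini-Hochberg adjustment, with adjusted exact permutation p-values from 0.0625 to 0.133. The p-values of the alternatives, among them those within bins of fold and at equal list lengths, come on top of these 10 and are not adjusted. With 2 lists in each group, the smallest raw p was 0.0667 for a time course of 1 factor and 0.0312 for a comparison over 6 lists.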

How the data were processed

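CUT&RUN peak lists for GATA6, NANOG, SOX2, GATA4 and SOX17 were used (30 lists, 15 groups of 2); the other 27 of the 57 samples were not analysed here. Per the labels and the methods, reads were aligned by the authors to mm10 with Bowtie2, blacklisted reads were removed with SAMtools, duplicates were identified with Picard and kept, and narrow peaks were called with MACS in each library against a rabbit anti-rabbit control. The deposited lists give each peak's fold enrichment over the control, a ratio, and its −log10 p-value and −log10 q-value. All peaks passed q of 0.05.

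A region had a factor in a list when a peak overlapped it by 1 bp. Shares of regions per list were compared by exact permutation over lists, since regions are not replicates: labels of lists were exchanged between time points (90 arrangements), between factors within time points (216), or signs of the class differences were flipped (64 or 16). All tests were two-sided except the F statistic of the time courses, and p-values were adjusted over 10 tests. Differences within 5 bins of mean GATA6 2 h fold (or NANOG or SOX2 0 h fold) were weighted by members. Genes came from GENCODE vM21 and bases from GRCm38, whose chromosome lengths hold all regions outside the mitochondrial genome, for which no length was compared. Start sites within 50000 bp were counted. Background coverage was solved from pairs of peaks with a tolerance of 0.2 percent and was not recovered for GATA4. The statistics were tested on simulated data. Python 3.11.15, numpy 2.4.6, pandas 2.3.3, scipy 1.17.1, pysam 0.24.0 and samtools 1.23.1 were used.

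The members and gene lists were chosen with earlier results of these data known. A gene of the PrE factor list is not reported here. Named regions are, for each listed gene, the member of highest GATA6 2 h fold within 50 kb, the 10 members with the highest geometric mean fold, up to 10 in all later lists, the 10 genes with the most members, and the members nearest the threshold. Alternatives were stricter peaks, summit overlap, equal list lengths, record times, a replicate block, bins of fold, each list left out and, chosen after seeing the data, windows of 100 bp to either side of the summit.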

Additional observations from a re-analysis of the deposited data

Results flagged for a closer look

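Members and SOX2-only regions ordered differently for SOX17 than for GATA6. Members held a GATA6 peak more often than SOX2-only regions in all 6 lists after 2 h, by 0.492 to 10.0 points, whereas the SOX17 24 h lists had a peak at fewer members, with differences of −7.48 points in replicate 1 and −7.88 points in replicate 2. The difference between the factors was not tested. Within bins of GATA6 2 h fold the order was the same for both factors: the GATA6 lists differed by −15.2 to −3.98 points (members minus SOX2-only) in 6 of 6 lists, and both SOX17 lists had a peak at fewer members in each of the 5 bins.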

How the results depend on the processing

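With peaks of −log10 q of at least 5, 2727 members were left, and the GATA6 difference was 2.05 points against GATA6-only (p = 0.5) and 4.48 against SOX2-only regions (p = 0.0625), by exact permutation. With list lengths made equal within each factor, the GATA6 time course was 16.7 points. The GATA6 difference from GATA6-only regions was then 4.49 points (exact permutation p = 0.0625), and within 100 bp of the summit it was 5.66 (exact permutation p = 0.125). NANOG minus SOX2 was −39.6 points at those lengths (exact permutation p = 0.00926). Each NANOG list then held 2255 peaks and each SOX2 list 11540, so this value cannot compare the 2 factors. Within bins of fold the GATA6 differences were −8.52 and −8.15 points and the SOX2 difference 2.91. Under the record times GATA6 stood 42.0 points higher at 48 h than at 4 h (−42.0 as the difference of 4 h minus 48 h). With a replicate block the difference of NANOG and SOX2 was −18.5 points (exact permutation p = 0.0938), and the block changed no other call. Replicate 1 minus 2 had opposite signs in NANOG and SOX2 at 2 h (7.39 and −10.4 points) and the same sign at 4 h (0.845 and 13.1) and 8 h (3.14 and 1.81), and GATA6 had the other sign at 4 h and 8 h (−3.46 and −2.07). The labels do not say that a number marks a shared culture, so the numbers were not taken to pair the lists.

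Leaving out 1 list at a time, the members numbered 5004 to 7059 (7059 without NANOG 0 h replicate 1). The time courses ranged from 77.9 to 85.3 points (NANOG), 37.2 to 47.6 (SOX2) and 70.5 to 76.9 (GATA6), and NANOG minus SOX2 from −20.7 to −16.3. The GATA6 differences ranged from 4.17 to 19.2 and from 4.14 to 11.1 (4.14, p = 0.0625 by exact permutation, without NANOG 0 h replicate 2), and SOX2 against SOX2-only from 12.3 to 23.8. Against regions without GATA6, NANOG ranged from 31.3 to 43.2 and SOX2 from 44.3 to 56.4, and the GATA4 and SOX17 difference from 10.6 to 19.7. With 5 lists the exact sign test can reach 0.0625 only. NANOG against SOX2 passed 0.05 no longer without NANOG 2 h replicate 2, either NANOG 4 h list, SOX2 2 h replicate 2 or SOX2 4 h replicate 1, where the exact permutation p was 0.0648 to 0.0833. The cause of these changes was not tested, other than the lists left out. Library depths were recovered for the peak lists only in part, and a region without a peak may lie below what a list can show.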
